A study of Homo sapiens with 6 samples.

Results

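The genes described here encode G protein-coupled receptors of MV4-11 cells. They were chosen by a pattern on the gene symbol that covers the adhesion, numbered GPR, purinergic, lysophospholipid, amine, prostanoid, leukotriene, formyl peptide, hydroxycarboxylic acid, melanocortin, protease activated and cannabinoid receptors, together with a minimum of 10 counts summed over the 6 samples. Chemokine receptors are not in the pattern, and 8 of the genes it finds encode Golgi or lysosome proteins, which are set apart. Of 20348 rows in the table, 200 matched the pattern, 142 of these had at least 1 count, and 100 genes reached the minimum. P2RY8 was listed once for chromosome X and once for chromosome Y with identical values and was counted as 1 gene. Just outside the minimum lay GPR22 with 9 counts, GPR137C with 8 and GPR15, ADGRG1 and HTR6 with 7 each, and just inside it lay FPR3 and GPR171 with 10 and CHRM3 and P2RY4 with 11. Another 58 matching rows had 0 counts in all 6 samples.

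MV4-11 is an established human AML line with a KMT2A fusion and an internal tandem duplication of FLT3. RNA-seq was made from 3 Control samples, which were untreated, and 3 samples treated with 1 μM WNK463, a compound that inhibits kinases of the WNK family, and both groups were collected at 48 h. All samples come from this 1 line, so the values describe 1 cell model and 1 dose. The sources do not say whether the 3 samples of a group were separate cultures, so each p-value measures the spread between these samples, which may be technical.

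G protein-coupled receptors cross the plasma membrane with a bundle of helices and pass a ligand signal to a heterotrimeric G protein. Gs activates adenylyl cyclase and raises cyclic AMP, Gi inhibits it, and Gq activates phospholipase C beta and releases calcium. Blood and myeloid cells use such receptors to sense lipids, nucleotides, amines, bacterial peptides and acid, and to move towards or away from them, while adhesion receptors bind neighbouring cells and matrix.

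Depth ranged from 14915745 to 17411780 counts per sample, and the TMM scaling factors lay between 0.944 and 0.951 in Control and between 1.05 and 1.06 with WNK463. The AML line markers CD33, FLT3 and SPI1 were present in every sample. The 10 genes of that list summed to 2354 to 2522 TPM in Control and 1284 to 1315 TPM with WNK463, and of its 9 tested genes LYZ and MPO were called lower and ITGAM higher. The 5 T cell markers summed to at most 1.34 TPM and the 5 B cell markers to at most 2.55 TPM in any sample, CD3D, CD3G and MS4A1 were at 0, and all 4 erythroid markers were at 0 in every sample. The 4 NK markers, mainly NKG7, summed to 24.4 to 32.2 TPM in Control and 44.3 to 45.5 TPM with WNK463. ITGA2B accounted for nearly all of the 4 megakaryocyte markers, which summed to 8.11 to 9.78 TPM in Control and 26.2 to 26.6 TPM with WNK463, with PF4 at 0. The part of these differences in the receptor values was not tested. In bulk RNA, fewer cells of a type and less RNA per cell cannot be told apart.

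More receptor genes were higher than lower after WNK463. A gene was called when its edgeR adjusted p was below 0.05 and its log2 fold change, WNK463 over Control, was at least 1 in size. Of the 78 receptor genes that passed edgeR's filter on low counts, 26 were called higher, or 33.3%, against 9.62% of the 11973 genes tested, and 5 were called lower, or 6.41%, against 5.55% of all genes. At an adjusted p below 0.05 with no limit on the fold, 46 were higher, or 59%, against 35.5% of all genes, and 12 were lower, or 15.4%, against 35.3%. The other 20 tested receptor genes did not pass. The median log2 fold change was 0.49 over the tested receptor genes and 0.02 over all tested genes, and 56 of the 78 had a positive value.

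The filter bears on these counts. A group of 8 genes, among them ADGRG3, CHRM4, FPR1, HCAR2, HCAR3, GPR34 and ADORA3, had under 10 counts in every Control sample and entered the test through the WNK463 samples, so these 8 had to differ, and none entered the other way. Among the 61 receptor genes with at least 10 counts in every sample, 14 were called higher, or 23%, against 6.64% of 11150 genes, and 4 were called lower, or 6.56%, against 4.59%. When libraries were scaled by their total counts alone, without TMM, the median of all genes was 0.15 higher on the log2 scale, and 12.1% of all genes were called higher and 3.83% lower, against 38.5% and 5.13% of the receptor genes.

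**Figure D1:**
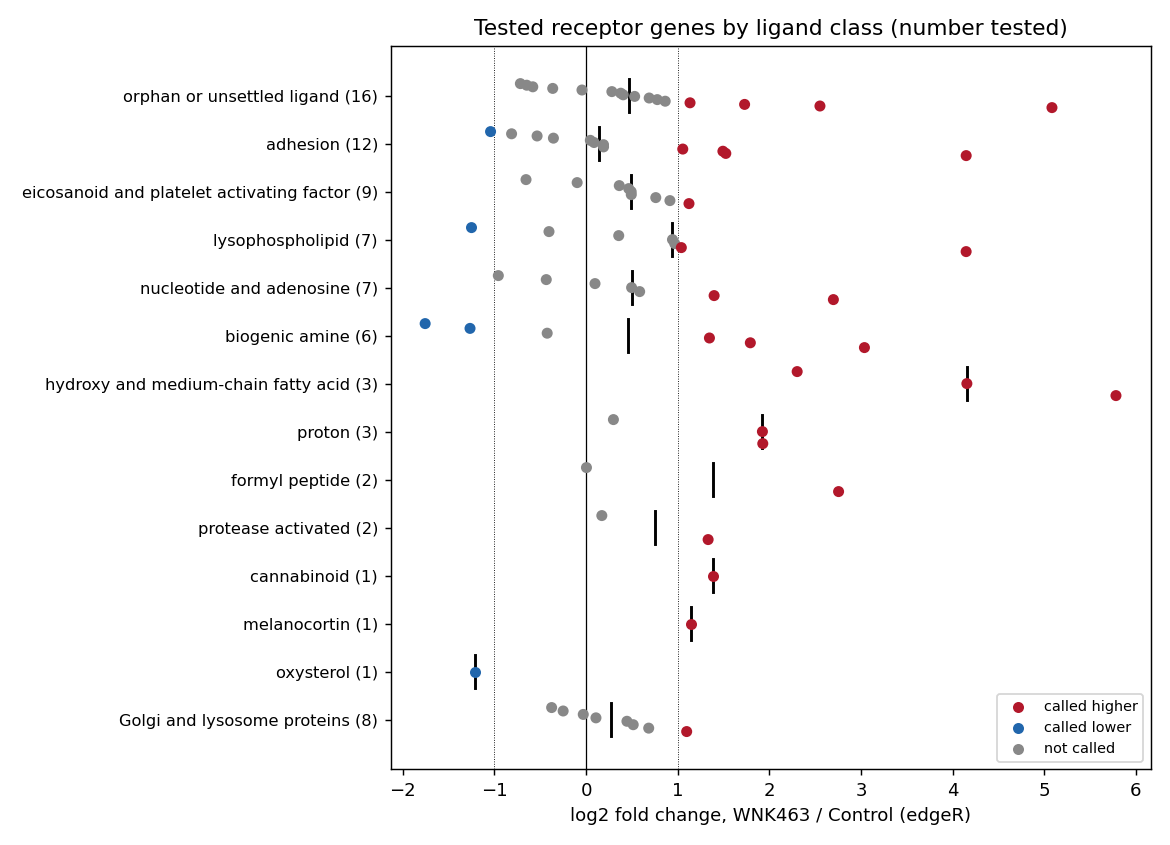
Log2 fold change, WNK463 over Control, of the 78 tested genes on the x axis, grouped by ligand class on the y axis, with the number tested in brackets. Each point is 1 gene, red where called higher, blue where called lower and grey otherwise, the black tick is the median of the class, and dotted lines mark a log2 fold change of 1 in either direction. The 3 hydroxy and medium-chain fatty acid receptors have the highest class median, 4.15, which is the value of HCAR2. HCAR2 and HCAR3 entered the test through the WNK463 samples and so had to differ. The called lower genes include HRH1, S1PR3, GPR183 and ADGRL2.

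Amine receptors moved in both directions. Of 11 genes in this class 6 were tested, of which 3 were higher and 3 were lower at an adjusted p below 0.05. Each is 50%, beside 35.5% higher and 35.3% lower among all tested genes. HTR7, a serotonin receptor that signals through Gs (ENSG00000148680, chromosome 10 from 90740823 to 90857698, minus strand), had 20.3, 21.4 and 18.6 CPM in the Control samples and 53.4, 48.7 and 51.1 CPM in the WNK463 samples, where CPM is the count per 1000000 counts of the TMM-scaled library. The groups did not overlap and the level was 2.54-fold higher with WNK463 (log2 fold change 1.35, SE 0.08, edgeR adjusted p = 4.2e-11).

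HTR2B, a serotonin receptor coupled to Gq, had 24, 14 and 10 counts in Control and 54, 60 and 60 with WNK463 (log2 fold change 1.79, SE 0.30, edgeR adjusted p = 3.7e-05). HTR2B shares 24.9% of its exon bases with PSMD1 on the opposite strand, which fell (log2 fold change -0.55), and the strand setting of the counting was not given, so reads of the shared bases cannot be assigned. The histamine receptor HRH1, which uses Gq, had 26, 49 and 38 counts in Control and 15, 13 and 21 with WNK463 (log2 fold change -1.27, SE 0.35, edgeR adjusted p = 0.0034), and without Control replicate 2 its log2 fold change was -0.98 and it was no longer called. HRH2, the Gs-coupled histamine receptor, was the most abundant amine receptor, with 258, 257 and 244 CPM in Control and 201, 181 and 184 CPM with WNK463. It was lower in every WNK463 sample (log2 fold change -0.42, SE 0.05, edgeR adjusted p = 8e-07) but short of the limit on the fold. CHRM4, a muscarinic acetylcholine receptor that uses Gi, was nearly silent in Control, with 1, 2 and 3 counts in Control and 17, 16 and 21 with WNK463, a ratio of 8.63, with a 95% exact counting interval from 3.72 to 24.6. Summed over the class, the levels were 132 ± 4.56 TPM in Control and 136 ± 6.30 TPM with WNK463 (SD, n = 3), so the amine receptors as a sum of TPM differed by less than the spread between samples. TPM is not scaled by TMM, so this need not hold on the TMM scale.

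Receptors for prostanoids, leukotrienes and platelet activating factor were higher or did not pass, and none was lower at an adjusted p below 0.05. Of 10 genes 9 were tested and 6 passed, all higher (66.7%), beside 35.5% higher and 35.3% lower among all tested genes. PTGER4, the EP4 receptor through which prostaglandin E2 raises cyclic AMP, had 77.1, 82.3 and 84.4 CPM in the Control samples and 139.7, 142 and 131 CPM in the WNK463 samples. All WNK463 values were above all Control values, a 1.69-fold difference (log2 fold change 0.76, SE 0.05, edgeR adjusted p = 1e-09) that did not reach the limit for a call. CYSLTR1, the cysteinyl leukotriene receptor blocked by montelukast (ENSG00000173198, chromosome X from 78271464 to 78327691, minus strand), had 23.9, 23.5 and 33.5 CPM in the Control samples and 59.7, 60.8 and 55.9 CPM in the WNK463 samples. Control replicate 3 was the highest Control sample and still lay under every WNK463 sample (log2 fold change 1.12, SE 0.10, edgeR adjusted p = 1.8e-08).

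LTB4R, the high-affinity receptor for leukotriene B4, had 34.3 ± 2.67 CPM in Control and 48.2 ± 3.91 CPM with WNK463 (mean ± SD, n = 3, as for the other means here). LTB4R (log2 fold change 0.49, edgeR adjusted p = 1.9e-05) and LTB4R2 (log2 fold change 0.36, edgeR adjusted p = 0.013) share 355 exon bases on the same strand, and LTB4R2 shares 39.5% of its exon bases with CIDEB on the opposite strand, so the split between them is uncertain. PTAFR, the receptor for platelet activating factor, had a log2 fold change of 0.49 (edgeR adjusted p = 0.0019), and PTGER2, the EP2 receptor, had 0.91 (edgeR adjusted p = 0.019). PTGIR, the prostacyclin receptor, had 12.1 ± 0.477 CPM in Control and 11.3 ± 0.480 CPM with WNK463 and did not pass (edgeR adjusted p = 0.43), nor did OXER1 (log2 fold change -0.66, edgeR adjusted p = 0.21) and CYSLTR2 (log2 fold change 0.47, edgeR adjusted p = 0.29). The summed level of the class was 107.1 ± 5.31 TPM in Control and 200.4 ± 9.51 TPM with WNK463 (SD, n = 3), with every WNK463 sample above every Control sample.

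All 3 receptors for hydroxylated and medium-chain fatty acids were higher, but HCAR2 and HCAR3 entered the test through the WNK463 samples and so had to differ. GPR84, a Gi-coupled receptor for medium-chain fatty acids found on activated myeloid cells (ENSG00000139572, chromosome 12 from 54362445 to 54364487, minus strand), had 49, 52 and 36 counts in the Control samples and 252, 236 and 220 counts in the WNK463 samples. The groups were far apart, a 4.94-fold difference (log2 fold change 2.30, SE 0.16, edgeR adjusted p = 5.1e-10). HCAR2, the receptor for nicotinic acid and for the ketone body beta-hydroxybutyrate (ENSG00000182782, chromosome 12 from 122701293 to 122703343, minus strand), had 0, 4 and 0 counts in the Control samples and 35, 23 and 23 counts in the WNK463 samples. HCAR3, its close copy that binds hydroxylated medium-chain fatty acids (ENSG00000255398, chromosome 12 from 122714756 to 122716892, minus strand), had 0, 1 and 0 counts in the Control samples and 22, 27 and 29 counts in the WNK463 samples.

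In Control, HCAR2 had 4 counts in 1 sample and 0 in the others, and HCAR3 had 1 count in all. The ratio of normalised counts was 19.4, with a 95% exact counting interval from 7.30 to 72.99, for HCAR2, and 74.8, with a 95% exact counting interval from 13.04 to 2992, for HCAR3, and the fitted folds depend on the prior count (edgeR adjusted p = 1.8e-05 and 7.3e-07). These intervals cover counting error only. HCAR2 and HCAR3 lie 11.4 kb apart on chromosome 12, and 35.5% of the 50-base windows of the HCAR2 transcript and 34% of those of HCAR3 also occur in the other, so reads there could be split between them. HCAR3 shares 57.3% of its exon bases with the noncoding gene AC026333.3 on the opposite strand. The summed level of the class was 3.62 ± 1.03 TPM in Control and 22.5 ± 1.02 TPM with WNK463 (SD, n = 3).

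**Figure D2:**
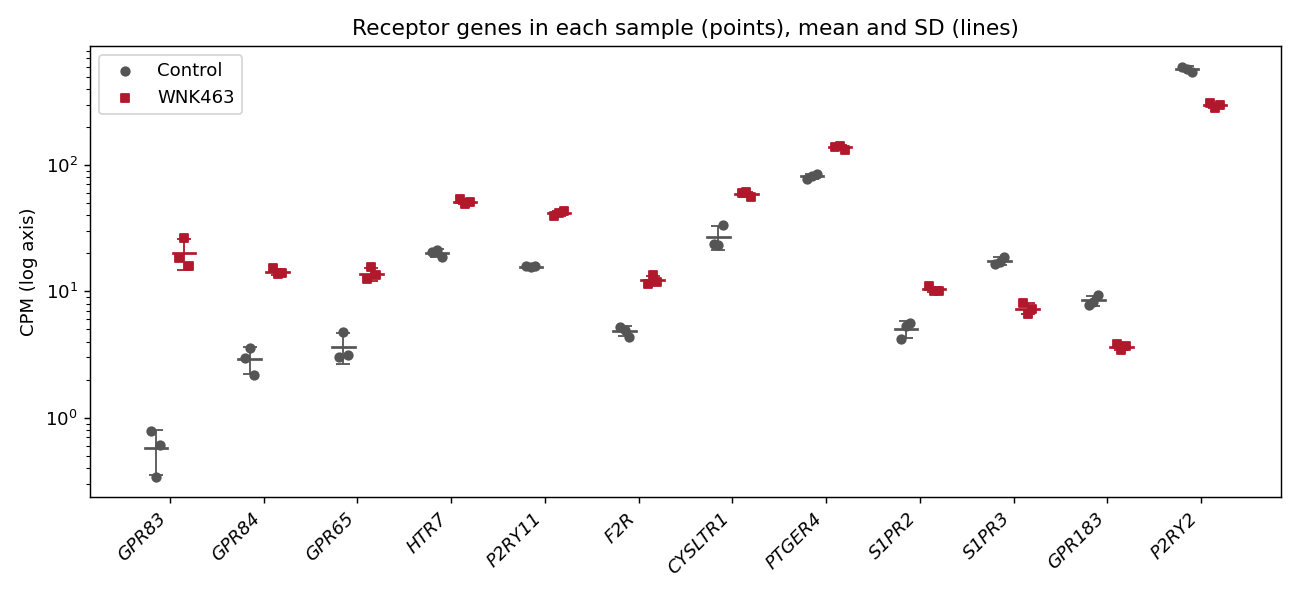
CPM on a log axis of 12 receptor genes in each sample, with Control as grey circles and WNK463 as red squares, and with the mean and SD of each group as lines. GPR83 has the largest fold change of those drawn, PTGER4 and P2RY2 are the 2 most abundant genes drawn, and S1PR3, GPR183 and P2RY2 are the genes whose WNK463 samples lie under the Control samples.

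Sphingosine 1-phosphate receptors moved in opposite directions. S1PR3 (ENSG00000213694, chromosome 9 from 88990863 to 89005010, plus strand) had 16.5, 16.9 and 18.7 CPM in the Control samples and 8.03, 6.63 and 7.28 CPM in the WNK463 samples. The WNK463 samples lay under all Control samples, a 2.38-fold lower level (log2 fold change -1.25, SE 0.12, edgeR adjusted p = 2.5e-08). S1PR2 (ENSG00000267534, chromosome 19 from 10221433 to 10231331, minus strand), which holds back cell migration through the G12 and G13 proteins, had 69, 78 and 92 counts in the Control samples and 182, 172 and 159 counts in the WNK463 samples and was higher in every WNK463 sample (log2 fold change 1.04, SE 0.15, edgeR adjusted p = 5.1e-06). The S1PR2 call rests on the limit of the fold, since its log2 fold change was 0.91 without Control replicate 1 and 0.99 without WNK463 replicate 1. S1PR2 shares 2.28% of its exon bases with DNMT1 on the same strand, which fell (log2 fold change -0.78).

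The promoters of these genes are shown because the pair binds 1 ligand and moved apart. They are the 250 bases before the start in RefSeq on GRCh38.p14 (chr19:10231332-10231581, minus strand for S1PR2 and chr9:88990613-88990862, plus strand for S1PR3), printed 5′ to 3′ on the strand of the gene. Capitals mark matches on either strand to 5 motifs searched by their letters, which were the cAMP response element TGACGTCA, the GC box GGGCGG, the E-box CACGTG, the TATA box TATAAA and the PU.1 core GAGGAAGT.
S1PR2 promoter: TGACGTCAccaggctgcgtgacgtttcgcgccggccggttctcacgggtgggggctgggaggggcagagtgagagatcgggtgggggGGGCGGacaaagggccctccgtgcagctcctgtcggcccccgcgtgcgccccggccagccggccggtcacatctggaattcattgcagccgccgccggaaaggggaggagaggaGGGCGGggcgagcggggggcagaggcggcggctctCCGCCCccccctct
S1PR3 promoter: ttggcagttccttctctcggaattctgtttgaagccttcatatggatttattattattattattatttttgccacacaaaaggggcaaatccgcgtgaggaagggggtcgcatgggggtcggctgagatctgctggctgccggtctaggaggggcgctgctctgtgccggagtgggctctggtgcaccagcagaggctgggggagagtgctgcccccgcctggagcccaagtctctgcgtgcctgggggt
S1PR2 holds a cAMP response element from 250 to 243 bases before the start, GC boxes on the printed strand from 163 to 158 and from 49 to 44 bases before it, and a GC box on the reverse strand from 14 to 9 bases before it. The S1PR3 window holds none of the 5 motifs. Of 35116 promoters of this length, 1.65% held the cAMP response element, 42.6% the GC box, 6.34% the E-box, 10.7% the TATA box and 2.17% the PU.1 core. A match is a description of the letters only, and no match says nothing of a factor. Promoters were found for 69 of the 100 receptor genes.

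Of the 9 lysophospholipid receptor genes 7 were tested and all passed, 5 higher (71.4%) and 2 lower (28.6%), beside 35.5% and 35.3% of all tested genes. GPR34, a receptor for lysophosphatidylserine, had 0, 2 and 1 counts in Control and 24, 22 and 16 with WNK463, a ratio of 19.8, with a 95% exact counting interval from 6.48 to 98.7 (edgeR adjusted p = 1e-05). GPR34 entered the test through the WNK463 samples and so had to differ. The lysophosphatidic acid receptors LPAR2 (log2 fold change 0.36, edgeR adjusted p = 0.0019), LPAR4 (0.97, edgeR adjusted p = 0.0032) and LPAR5 (0.94, edgeR adjusted p = 0.0062) were higher, and LPAR1 (-0.40, edgeR adjusted p = 0.021) was lower. LPAR2 was the most abundant of the class, with 27.1 ± 2.38 TPM in Control and 32.8 ± 2.68 TPM with WNK463 (SD, n = 3). GPR55, which answers lysophosphatidylinositol, was too low to test. It had 3, 9 and 6 counts in Control and 0, 0 and 0 with WNK463, or 6.26-fold lower when the WNK463 samples together are set at the limit of 3 counts that a count of 0 allows. This ratio takes the Control counts as exact, so it is not a lower bound.

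The oxysterol receptor fell and the cannabinoid receptor rose. GPR183, which guides B cells and dendritic cells along oxysterol gradients (ENSG00000169508, chromosome 13 from 99294530 to 99307405, minus strand), had 7.79, 8.30 and 9.33 CPM in the Control samples and 3.80, 3.43 and 3.70 CPM in the WNK463 samples. Every WNK463 sample was under every Control sample, a 2.32-fold lower level (log2 fold change -1.22, SE 0.16, edgeR adjusted p = 2.4e-06). CNR2, the cannabinoid receptor of immune cells, had 19, 24 and 35 counts in Control and 65, 65 and 82 with WNK463 (log2 fold change 1.38, SE 0.26, edgeR adjusted p = 0.00014). GPR18, which lies 32.8 kb from GPR183, was below the filter with 7, 3 and 4 counts in Control and 4, 9 and 7 with WNK463. The RefSeq promoter of GPR183 on GRCh38.p14 (chr13:99307400-99307649, minus strand) is shown with TATAAA in capitals, on the printed strand from 243 to 238 and from 175 to 170 bases before the start, and on the reverse strand from 245 to 240, overlapping the first.
GPR183 promoter: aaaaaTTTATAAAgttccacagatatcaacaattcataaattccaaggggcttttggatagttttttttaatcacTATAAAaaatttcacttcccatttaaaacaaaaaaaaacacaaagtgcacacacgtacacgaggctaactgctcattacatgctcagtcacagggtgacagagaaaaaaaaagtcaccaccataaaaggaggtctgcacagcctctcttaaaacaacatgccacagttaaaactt

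Nucleotide receptors included the most abundant receptor gene that fell. P2RY2, which answers ATP and UTP through Gq (ENSG00000175591, chromosome 11 from 73218298 to 73236352, plus strand), had 599, 578 and 547 CPM in the Control samples and 309.7, 282 and 296 CPM in the WNK463 samples. All WNK463 samples lay far under the Control samples, a 1.94-fold lower level (log2 fold change -0.96, SE 0.05, edgeR adjusted p = 1.4e-11) just short of a call, and without Control replicate 3 it was called with a log2 fold change of -1.005. P2RY6, the UDP receptor 28.2 kb away on the same chromosome, had 73.98, 75.4 and 69.5 CPM in Control and 80.7, 71.05 and 82.4 CPM with WNK463, and its groups overlapped (log2 fold change 0.10, SE 0.06, edgeR adjusted p = 0.18), although it passed with a log2 fold change of 0.25 when libraries were scaled by total counts and of 0.16 without WNK463 replicate 2. P2RY11, an ATP receptor that can raise cyclic AMP (ENSG00000244165, chromosome 19 from 10111538 to 10115372, plus strand), had 15.8, 15.5 and 15.8 CPM in the Control samples and 39.6, 41.3 and 43.2 CPM in the WNK463 samples, a 2.63-fold higher level with no overlap (log2 fold change 1.40, SE 0.08, edgeR adjusted p = 3.3e-11).

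P2RY11 shares 50% of its exon bases with the readthrough gene PPAN-P2RY11 (log2 fold change 0.06) on the same strand, so part of its reads could belong to either. P2RY1, an ADP receptor, was higher (log2 fold change 0.58, edgeR adjusted p = 0.00014). ADORA3, the Gi-coupled adenosine receptor, had 9, 4 and 4 counts in Control and 44, 38 and 35 with WNK463 (log2 fold change 2.70, SE 0.38, edgeR adjusted p = 4.7e-06), and shares 18% of its exon bases with TMIGD3 on the same strand, which also rose (log2 fold change 1.82). ADORA3 entered the test through the WNK463 samples and so had to differ. ADORA2B, a Gs-coupled adenosine receptor, had 18.8 ± 1.24 CPM in Control and 26.5 ± 1.90 CPM with WNK463 (log2 fold change 0.50, edgeR adjusted p = 6.9e-05), whereas ADORA2A did not pass (log2 fold change -0.43, edgeR adjusted p = 0.23). ADORA2A shares 56.8% of its exon bases with the readthrough gene SPECC1L-ADORA2A on the same strand, so its reads could belong to either. That gene was not tested and had a mean of 1.25 CPM in Control and 0.136 CPM with WNK463. The summed level of the 9 genes of the class was 255 ± 9.82 TPM in Control and 247 ± 12.4 TPM with WNK463 (SD, n = 3), and the groups overlapped. TPM is not scaled by TMM, and on log2(TPM + 1) the median of all genes was 0.15 higher than in the TMM-scaled counts. The overlap in TPM therefore need not hold on the TMM scale.

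Receptors for peptides and proteases gave 3 called genes, all higher. They were 1 of 2 tested formyl peptide receptors, 1 of 2 protease activated receptors and the 1 melanocortin receptor. Of all tested genes, 9.62% were called higher and 5.55% lower. FPR1, the neutrophil and monocyte receptor for formylated bacterial peptides, had 7, 8 and 8 counts in the Control samples and 63, 48 and 53 counts in the WNK463 samples, with all WNK463 samples well above Control (log2 fold change 2.76, SE 0.32, edgeR adjusted p = 5e-07). FPR1 entered the test through the WNK463 samples and so had to differ. FPR2, its neighbour on chromosome 19, had 71, 69 and 61 counts in Control and 56, 69 and 85 with WNK463 and overlapped (log2 fold change 0.00, SE 0.21, edgeR adjusted p = 0.99). FPR3 had 0, 0 and 0 counts in Control and 7, 1 and 2 with WNK463, or 3.20-fold higher with the Control samples together set at 3 counts, and was not tested. This ratio takes the WNK463 counts as exact, so it is not a lower bound. F2R, the thrombin receptor, had 5.24, 4.94 and 4.39 CPM in Control and 11.4, 13.4 and 11.8 CPM with WNK463 and was higher in every WNK463 sample (log2 fold change 1.33, SE 0.14, edgeR adjusted p = 1.1e-07). F2RL3, the other thrombin receptor, had 26.3 ± 0.740 CPM in Control and 29.7 ± 2.93 CPM with WNK463 and did not pass (edgeR adjusted p = 0.074). MC1R, the melanocortin receptor of pigment cells, had 17, 27 and 24 counts in Control and 58, 64 and 37 with WNK463 (log2 fold change 1.15, SE 0.29, edgeR adjusted p = 0.0017), with a log2 fold change of 0.95 and no call without Control replicate 1. MC1R shares 9.83% of its exon bases with TCF25 on the same strand, which rose (log2 fold change 0.49).

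The proton-sensing receptors GPR65 and GPR132 were higher. GPR65 (ENSG00000140030, chromosome 14 from 88005124 to 88014811, plus strand), an acid sensor of leukocytes that couples to Gs, had 3.04, 4.80 and 3.11 CPM in the Control samples and 12.4, 15.6 and 13.3 CPM in the WNK463 samples, a 3.81-fold difference with no overlap (log2 fold change 1.93, SE 0.17, edgeR adjusted p = 1.1e-08). GPR132, the more abundant gene, had 54.1, 53.3 and 50.9 CPM in Control and 67.9, 58.4 and 68.5 CPM with WNK463, a smaller difference that also did not overlap (log2 fold change 0.30, SE 0.07, edgeR adjusted p = 0.00078). The RefSeq promoter of GPR65 on GRCh38.p14 (chr14:88004885-88005134, plus strand) is shown with its single TATAAA, from 158 to 153 bases before the start, in capitals.
GPR65 promoter: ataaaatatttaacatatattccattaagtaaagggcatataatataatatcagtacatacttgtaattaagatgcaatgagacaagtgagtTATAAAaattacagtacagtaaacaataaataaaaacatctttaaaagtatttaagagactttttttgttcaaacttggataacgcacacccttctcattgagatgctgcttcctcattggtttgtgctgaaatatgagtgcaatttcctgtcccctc

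The adhesion receptors held 14 genes, of which 12 were tested, 6 passed higher (50%) and 2 lower (16.7%). Among all tested genes these shares were 35.5% and 35.3%. The abundant members changed little. ADGRE5, known as CD97 on leukocytes, had 234, 223 and 223 CPM in Control and 240.4, 232 and 249.8 CPM with WNK463, and the groups overlapped (log2 fold change 0.09, SE 0.05, edgeR adjusted p = 0.11). ADGRA2, which acts with WNT ligands in brain vessels, had 263, 268 and 269 CPM in Control and 288, 265 and 273 CPM with WNK463 (log2 fold change 0.05, SE 0.05, edgeR adjusted p = 0.38). Both passed when libraries were scaled by total counts, with log2 fold changes of 0.24 and 0.20, and ADGRE5 also without Control replicate 1, with 0.10. ADGRA2 shares 23.1% of its exon bases with BRF2 on the opposite strand. ADGRG5 (log2 fold change 0.19, SE 0.05, edgeR adjusted p = 0.0045) and the myeloid receptor ADGRE2 (log2 fold change 0.19, SE 0.05, edgeR adjusted p = 0.0033) were slightly higher in every WNK463 sample.

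Larger changes were seen in less abundant adhesion receptors. ADGRL1, a latrophilin that binds teneurins, had 8.95, 7.96 and 6.53 CPM in the Control samples and 24.2, 20.9 and 20.8 CPM in the WNK463 samples and was 2.81-fold higher (log2 fold change 1.49, SE 0.12, edgeR adjusted p = 3.9e-09). ADGRG3, a receptor of granulocytes 76.5 kb from ADGRG5, had 0, 1 and 2 counts in Control and 25, 23 and 14 with WNK463, a ratio of 19.8, with a 95% exact counting interval from 6.48 to 98.7 (edgeR adjusted p = 1.3e-05). ADGRG3 entered the test through the WNK463 samples and so had to differ. ADGRE1, whose mouse counterpart is the macrophage marker F4/80, had 9, 4 and 14 counts in Control and 24, 22 and 35 with WNK463 (log2 fold change 1.52, SE 0.41, edgeR adjusted p = 0.0028). ADGRA3 was lower (log2 fold change -0.53, SE 0.07, edgeR adjusted p = 4.7e-06).

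The calls of 2 adhesion receptors were fragile. ADGRF3, of little known function, had 7, 14 and 11 counts in Control and 30, 20 and 20 with WNK463 (log2 fold change 1.05, SE 0.38, edgeR adjusted p = 0.02), and ADGRL2, another latrophilin, had 23, 12 and 23 counts in Control and 8, 10 and 11 with WNK463 (log2 fold change -1.04, SE 0.38, edgeR adjusted p = 0.022). With DESeq2 their adjusted p was 0.079 and 0.095. ADGRF3 lost its call without Control replicate 1 (log2 fold change 0.80), Control replicate 3 (1.03, adjusted p = 0.055) or WNK463 replicate 1 (0.84). ADGRL2 lost its call without the same samples, with log2 fold changes of -0.93, -0.94 and -0.92, and without WNK463 replicate 2, with -1.04 and an adjusted p of 0.058.

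The orphan receptors, with no settled ligand, held 25 genes, of which 16 were tested, 8 passed higher (50%) and 2 lower (12.5%). Among all tested genes these shares were 35.5% and 35.3%. GPR83, a receptor described in brain and in regulatory T cells (ENSG00000123901, chromosome 11 from 94377311 to 94401419, minus strand), had 13, 5 and 10 counts in the Control samples and 302, 456 and 249 counts in the WNK463 samples. Control had few counts and every WNK463 sample was far above it, a 33.9-fold difference (log2 fold change 5.08, SE 0.26, edgeR adjusted p = 1.3e-11). The promoter of GPR83 in RefSeq on GRCh38.p14 (chr11:94401420-94401669, minus strand) is shown because this gene had the largest fold change among receptor genes with more than 3 counts in each Control sample. Its TATAAA, in capitals, lies from 32 to 27 bases before the start.
GPR83 promoter: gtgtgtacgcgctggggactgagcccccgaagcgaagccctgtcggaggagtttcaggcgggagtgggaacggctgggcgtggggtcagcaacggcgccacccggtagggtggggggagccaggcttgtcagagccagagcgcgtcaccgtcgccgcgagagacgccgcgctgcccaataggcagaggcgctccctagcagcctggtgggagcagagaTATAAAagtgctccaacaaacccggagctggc

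Other orphan receptors also rose from low levels. GPR162, a brain receptor with no known ligand, had 13, 11 and 10 counts in Control and 72, 75 and 63 with WNK463 (log2 fold change 2.55, SE 0.27, edgeR adjusted p = 1.7e-07). GPR135 had 32, 35 and 27 counts in Control and 71, 89 and 57 with WNK463 (log2 fold change 1.13, SE 0.24, edgeR adjusted p = 0.00041), and without WNK463 replicate 2 its log2 fold change was 0.99 and it was not called.

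The abundant orphan receptors changed less. GPR160 had the highest level of all receptor genes, with 248, 283 and 302 TPM in Control and 299, 301 and 288 TPM with WNK463, and its groups overlapped (log2 fold change -0.04, SE 0.06, edgeR adjusted p = 0.49). Its sign depended on the setting, with a log2 fold change of 0.11 under scaling by total counts and -0.12 (adjusted p = 0.024) without Control replicate 1. GPR35, a receptor of myeloid and gut cells, had 38.8, 35.5 and 37.6 CPM in Control and 50.4, 44.8 and 50.5 CPM with WNK463 (log2 fold change 0.38, SE 0.07, edgeR adjusted p = 0.00012). P2RY8, a receptor that confines germinal centre B cells, had 94.3, 97.9 and 96.4 CPM in Control and 68.1, 62.8 and 61.9 CPM with WNK463 and was lower in every WNK463 sample (log2 fold change -0.58, SE 0.06, edgeR adjusted p = 4.9e-08). GPR153 was also lower (log2 fold change -0.65, SE 0.11, edgeR adjusted p = 6.8e-05).

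The pattern on the symbol also caught 8 genes that encode membrane proteins of the Golgi or lysosome and are not classical receptors. Of these, 4 were higher (50%), 1 was lower (12.5%) and 3 did not pass, beside 35.5% higher and 35.3% lower among all tested genes. GPR108 had 102, 88.96 and 89.8 CPM in Control and 133, 135 and 134 CPM with WNK463 (log2 fold change 0.51, SE 0.06, edgeR adjusted p = 3.2e-07), and GPR137, a lysosomal protein, had 8.71, 7.96 and 8.60 CPM in Control and 19.2, 15.1 and 19.9 CPM with WNK463 (log2 fold change 1.10, SE 0.12, edgeR adjusted p = 2.7e-07). GPR137 shares 10% of its exon bases with BAD on the opposite strand, which did not pass (log2 fold change 0.09). GPR89A (log2 fold change -0.38, edgeR adjusted p = 0.0031) and GPR89B (log2 fold change -0.03, edgeR adjusted p = 0.88) are near-identical, with 81.5% of their 50-base windows in common, so the difference between them is uncertain. Without these 8 genes, 25 of 70 tested receptor genes were called higher, or 35.7%, and 5 lower, or 7.14%. With the same limit on the fold, 9.62% of all tested genes were called higher and 5.55% lower.

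The level of the receptor genes was compared as TPM, which corrects for gene length. Over the 6 samples 40 of the 100 genes had a mean under 1 TPM, 28 had over 10 TPM and 4 had over 100 TPM. In order of mean TPM, the 10 most abundant were GPR160, ADGRE5, GPR108, P2RY2, HRH2, ADGRA2, ADGRG5, PTGER4, P2RY6 and ADGRE2. Control levels of GPR160 (278 ± 27.1 TPM in Control and 296 ± 7.35 TPM with WNK463) lay above those of every other receptor gene. ADGRE5 had 145 ± 5.88 TPM in Control and 184 ± 11.7 TPM with WNK463, and P2RY2 had 149 ± 7.13 TPM in Control and 85.4 ± 5.48 TPM with WNK463, so that this pair, next in order in Control, did not differ beyond its spread there and lay far apart with WNK463. All of these 10 moved by less than the limit for a call, so none of them was called in either direction. The summed TPM of the 100 genes was 1494 ± 22.1 in Control and 1854 ± 16.3 with WNK463 (SD, n = 3). TPM is not scaled by TMM, and on the log2(TPM + 1) scale the median of all genes was 0.15 higher than in the TMM-scaled counts.

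**Figure D3:**
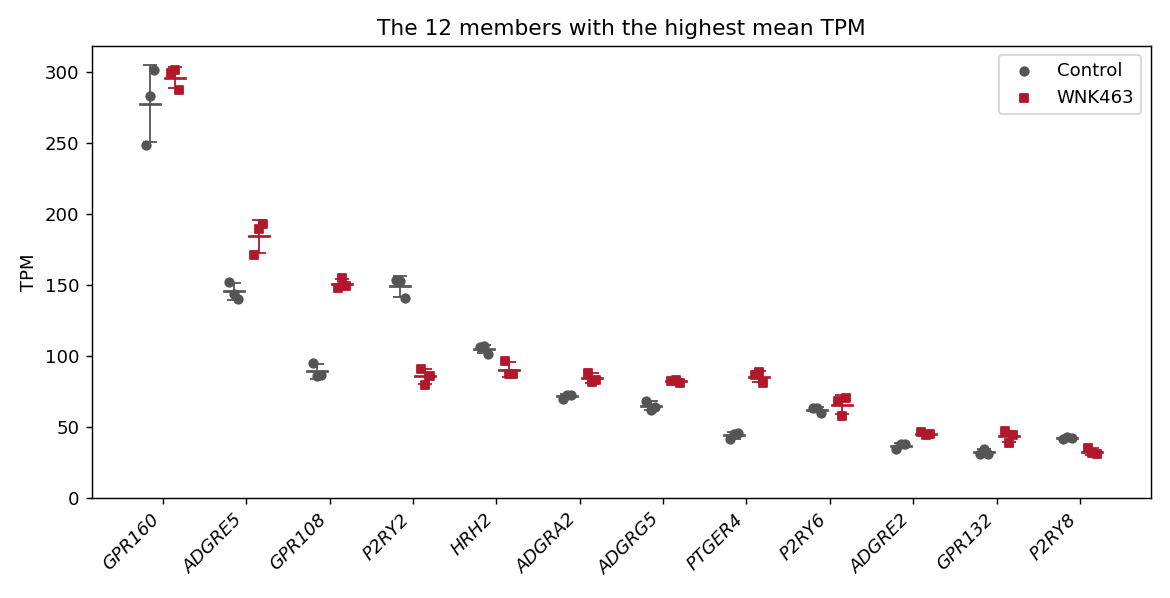
TPM in each sample of the 12 receptor genes with the highest mean TPM, with Control as grey circles and WNK463 as red squares, and with the mean and SD of each group as lines. GPR160 is highest in both groups, and P2RY2, HRH2 and P2RY8 are the genes whose WNK463 samples all lie under the Control samples.

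**Figure D4:**
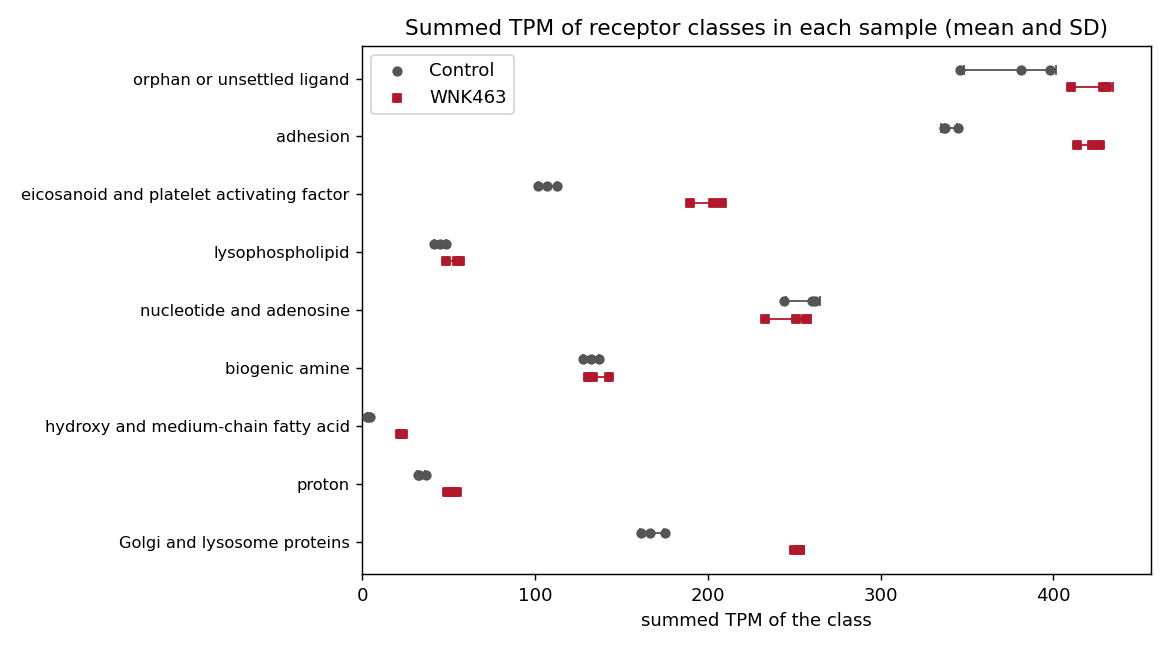
Summed TPM on the x axis of the receptor classes named on the y axis, in each sample, with Control as grey circles and WNK463 as red squares, and with lines spanning the mean ± SD. The eicosanoid and platelet activating factor class moves from 107.1 to 200.4 TPM in the mean, while the nucleotide and adenosine class and the biogenic amine class overlap between the groups. TPM is not scaled by TMM, so these overlaps need not hold on the TMM scale.

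Read by the G protein of each receptor, where a main partner is settled, the called genes were divided as follows. Of 11 Gs-coupled receptor genes tested, 3 were called higher, HTR7, GPR65 and MC1R, and 1 lower, and the MC1R call was lost without Control replicate 1 (log2 fold change 0.95). Of 11 tested Gi-coupled genes, 7 were called higher, namely HCAR2, HCAR3, GPR84, FPR1, ADORA3, CNR2 and CHRM4, and 1 lower, GPR183. Of 10 tested Gq-coupled genes, 3 were called higher, CYSLTR1, HTR2B and F2R, and 1 lower, HRH1. The median log2 fold change was 0.76, 2.30 and 0.48 in these groups, and differences between the groups were not tested. These counts stand beside 9.62% of all tested genes called higher and 5.55% called lower. Among the Gi-coupled genes, HCAR2, HCAR3, FPR1, ADORA3 and CHRM4 are among the 8 that entered the test through the WNK463 samples. The Gi median of 2.30 includes them and therefore does not describe the Gi-coupled genes at large. The other tested Gi-coupled genes were GPR84 (log2 fold change 2.30), CNR2 (1.38), LTB4R (0.49), FPR2 (0.00), OXER1 (-0.66) and GPR183 (-1.22).

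The 22 receptor genes below the filter had 10 to 54 counts over the 6 samples. In 6 of them, ADGRD1, ADGRG2, FPR3, GPR141, GPR179 and GPR82, all WNK463 counts lay above all Control counts, and in 1, GPR55, all lay below. Among all tested genes 37.1% had all WNK463 values above Control and 36.4% all below. Those genes passed the filter that these 22 failed, so the shares are not a like background, and none was computed for untested genes. ADGRG2 had 5, 1 and 0 counts in Control and 8, 20 and 14 with WNK463, and GPR141 had 1, 0 and 2 counts in Control and 4, 6 and 16 with WNK463. Both were called higher by DESeq2, with adjusted p = 0.0073 and 0.023, and GPR55 was called lower by it, with adjusted p = 0.0033. With no filter on low counts, FPR3 and ADGRD1 were called higher too. The other 15 overlapped between the groups, among them the muscarinic receptors CHRM3 and CHRM5, the dopamine receptor DRD4, the histamine receptor HRH4 and the prostaglandin receptor PTGER1.

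Genes that act with the receptors were read from lists of textbook members, whose medians ranged from -0.35 to 0.34 on the log2 scale against 0.02 for all genes, and which are read against the 35.5% and 35.3% of all genes that were higher or lower. G alpha subunits of the s and i families were lower at 4 of 6 tested genes and higher at 1, with GNAS, the Gs alpha subunit, at 244 ± 1.04 CPM in Control and 172 ± 2.25 CPM with WNK463 (log2 fold change -0.50, SE 0.04, edgeR adjusted p = 1.7e-08). GNAL, the olfactory Gs homologue, was called higher (log2 fold change 1.01, SE 0.32, edgeR adjusted p = 0.0088), and GNAZ (log2 fold change -1.33, SE 0.37, edgeR adjusted p = 0.0036) and GNAI1 (log2 fold change -1.01, SE 0.39, edgeR adjusted p = 0.027) were called lower, the latter with overlapping groups. Of 4 tested Gq and G12 family alpha subunits 1 was higher, GNAQ (log2 fold change 0.77, SE 0.05, edgeR adjusted p = 3.2e-10), and 1 lower. Of 8 tested beta and gamma subunits 2 were higher and 6 lower, and 1 was called. This was GNG2, a gamma subunit of leukocytes, with 9.92, 8.23 and 10.3 CPM in Control and 35.8, 38.1 and 33.9 CPM with WNK463 (log2 fold change 1.92, SE 0.10, edgeR adjusted p = 1e-11).

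RGS proteins speed the shutdown of G alpha subunits. Of 11 tested RGS genes 6 were higher and 2 lower, with RGS1, at 0.183, 0.0686 and 0.183 CPM in Control and 1.33, 1.34 and 1.85 CPM with WNK463 (log2 fold change 3.28, SE 0.48, edgeR adjusted p = 8.8e-06), and RGS3 (log2 fold change 1.54, SE 0.34, edgeR adjusted p = 0.00062) called higher and RGS16 (log2 fold change -1.24, SE 0.11, edgeR adjusted p = 1.2e-08) and RGS18 (log2 fold change -1.36, SE 0.25, edgeR adjusted p = 8.9e-05) called lower. RGS1 had 3 counts or fewer in every Control sample and entered the test through the WNK463 samples. It therefore had to differ, and its fitted fold depends on the prior count. Of 13 receptor kinases and arrestin family genes 7 were higher and 2 lower, and the called genes were the alpha-arrestins ARRDC4 (log2 fold change 1.23, SE 0.08, edgeR adjusted p = 5.5e-10) and TXNIP (log2 fold change 1.03, SE 0.04, edgeR adjusted p = 1.1e-12), which respond to glucose. The receptor kinase GRK2 (log2 fold change 0.02) did not pass, and the beta-arrestins ARRB1 and ARRB2 each had a log2 fold change of 0.20 and passed.

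Second messenger enzymes included higher and lower genes, as did all tested genes, of which 35.5% were higher and 35.3% lower. Each list holds few tested genes. Of 4 tested adenylyl cyclases 2 were higher and 2 lower, where ADCY4 was called higher (log2 fold change 1.39, SE 0.23, edgeR adjusted p = 3.5e-05) and ADCY3 was lower (log2 fold change -0.76, SE 0.06, edgeR adjusted p = 1.6e-09). Of 9 tested phosphodiesterases 4 were higher and 1 lower, and PDE4B, which degrades cyclic AMP, was called higher with 4.99, 5.56 and 4.70 CPM in Control and 15.1, 13.8 and 13.9 CPM with WNK463 (log2 fold change 1.49, SE 0.13, edgeR adjusted p = 8.6e-09). Of 12 tested genes for protein kinase A, EPAC and CREB proteins 4 were higher, 4 lower and none called. Of 6 tested genes for phospholipase C beta and the calcium release channels 3 were higher and 3 lower, with PLCB4 (log2 fold change -2.15, SE 0.42, edgeR adjusted p = 0.00016) and ITPR3 (log2 fold change -1.32, SE 0.12, edgeR adjusted p = 3.1e-08) called lower.

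Enzymes that make or remove the ligands went in both directions. Among 18 tested lipid enzymes 9 were higher (50%) and 4 lower (22.2%), beside 35.5% and 35.3% of all tested genes. GGT5, which converts leukotriene C4 to leukotriene D4, a ligand of CYSLTR1, had 10.3, 9.47 and 9.51 CPM in Control and 161, 145 and 148 CPM with WNK463 (log2 fold change 3.95, SE 0.07, edgeR adjusted p = 3.4e-17). ENPP2, or autotaxin, which makes lysophosphatidic acid, had 61.6, 57.4 and 63.2 CPM in Control and 179, 160.4 and 173 CPM with WNK463 (log2 fold change 1.49, SE 0.06, edgeR adjusted p = 3.5e-13), and the sphingosine 1-phosphate phosphatase SGPP1 was also called higher (log2 fold change 1.57, SE 0.46, edgeR adjusted p = 0.006). ALOX5AP, needed for leukotriene synthesis, was lower (log2 fold change -0.48), and LTC4S, the leukotriene C4 synthase, was higher (log2 fold change 0.46).

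Of 7 tested nucleotide and adenosine genes 5 were higher (71.4%) and 1 lower (14.3%), beside 35.5% and 35.3% of all tested genes. ADA2, a secreted adenosine deaminase, had 57.1, 47.5 and 47.4 CPM in Control and 159, 142 and 154.9 CPM with WNK463 (log2 fold change 1.58, SE 0.07, edgeR adjusted p = 1.6e-12), and SLC29A1, the equilibrative adenosine transporter, had 132, 127 and 124 CPM in Control and 59.00, 54.5 and 57.1 CPM with WNK463 (log2 fold change -1.17, SE 0.06, edgeR adjusted p = 3.7e-12). Of 5 tested amine enzymes 2 were higher (40%), both called, and 1 was lower (20%), read beside the same shares of all genes. MAOA, which degrades serotonin and noradrenaline, had 0.487, 0.412 and 0.183 CPM in Control and 1.93, 2.91 and 2.04 CPM with WNK463 (log2 fold change 2.65, SE 0.39, edgeR adjusted p = 9.9e-06), and AOC1, a diamine oxidase that degrades histamine, had a log2 fold change of 1.08, SE 0.23, edgeR adjusted p = 0.00035. MAOA had under 10 counts in every Control sample and entered the test through the WNK463 samples, so it had to differ.

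**Figure D5:**
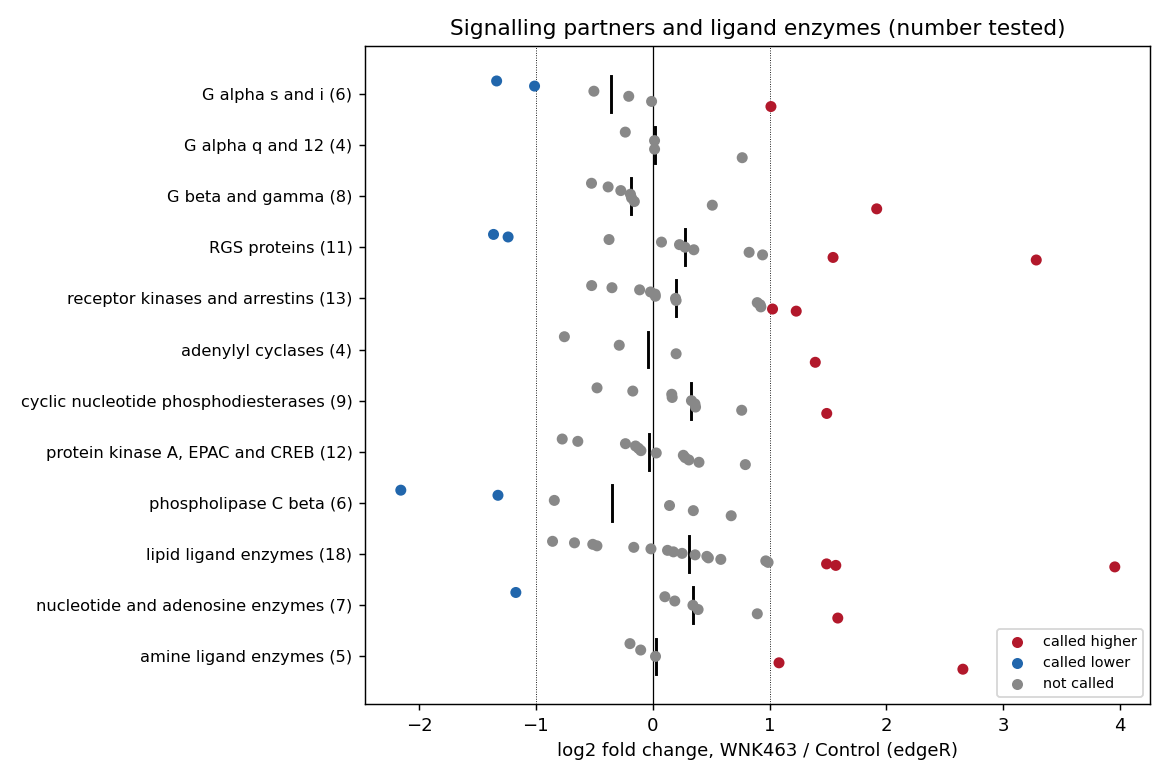
Log2 fold change, WNK463 over Control, on the x axis of the tested genes in the lists of signalling partners and ligand enzymes on the y axis, with the number tested in brackets. Each point is 1 gene, red where called higher, blue where called lower and grey otherwise, black ticks are list medians, and dotted lines mark a log2 fold change of 1 in either direction. GGT5 at 3.95 and RGS1 at 3.28 are the points furthest to the right, and PLCB4 at -2.15 is furthest to the left. RGS1 had 3 counts or fewer in every Control sample and entered the test through the WNK463 samples.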

How the data were processed

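RNA-seq of MV4-11 cells covered 3 untreated Control samples and 3 samples given 1 μM WNK463, all at 48 h and grouped by the sample labels. The authors enriched mRNA on capture beads and sequenced on an Illumina NovaSeq X Plus. The submitters' processing notes name fastp, HISAT2, Bowtie2, StringTie, RSEM, DESeq2 and edgeR on GRCh38, and their versions, the strand setting and the annotation release are not given in the sources used here. The authors deposited estimated counts per gene as whole numbers, not normalized, and TPM values, which correct for gene length and sum to the same total in each sample. The authors' own group means, fold changes and p-values in the same table were not used.

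The counts were tested with edgeR 4.0.16 in R 4.3.3 with TMM factors, filterByExpr and the quasi-likelihood test, without a block, and adjusted by Benjamini-Hochberg over 11973 genes. Each SE was obtained from the log2 fold change and the F statistic as the size of the former over the root of the latter. The common biological coefficient of variation was 5.21%. Depth was 14915745 to 17411780 counts per sample, and samples of a group differed by more than counting noise (chi-square per degree of freedom 2.64 to 7.13). With 3 samples a group, an exact permutation test cannot go below p = 0.1. Ratios against a group with few counts carry exact 95% counting intervals, and a group at 0 was set at 3 counts. Alternatives used DESeq2 1.42.0, limma 3.58.1 on log2(TPM + 1) and log2(TPM + 0.1) for genes with at least 1 TPM in 3 samples, glmTreat, other filters and scalings, the replicate block, each sample left out, and, chosen after seeing the data, 1 row for each gene with identical X and Y copies. The procedure was tested on simulated data.

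Genes named are all called receptor genes whose groups did not overlap, the 10 with the highest TPM, and called genes of the partner lists, at most 4 per list and direction. Any other gene was chosen after seeing its values. Some receptor genes are counted but not reported here by name. The receptor genes, ligand classes and lists were chosen with earlier results of these data known. Gene positions and exon overlaps are from GENCODE 29, and promoters from RefSeq on GRCh38.p14.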

Additional observations from a re-analysis of the deposited data

How the results depend on the processing

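The number of receptor genes called higher was 26 and the number called lower 5. Restricting the test to genes with 10 counts or more in each sample gave 14 called higher, glmTreat against the limit on the fold called 17 higher and 1 lower, limma on log2(TPM + 1) called 17 higher and 1 lower, and limma on log2(TPM + 0.1) called 3 lower. The first of these tests fewer genes and glmTreat asks for a fold shown to exceed the limit. With both limma settings several called genes, among them ADGRE1, ADGRF3, ADGRG3, ADGRL2, CHRM4 and HRH1, failed the TPM filter and were not tested. With limma on log2(TPM + 1), CNR2, GPR135, GPR183, MC1R, S1PR2 and S1PR3 still passed but lay under the limit on the fold. Why their folds were smaller was not tested. The median log2 fold change of the tested receptor genes was 0.49 and moved to 0.64 under scaling by total counts, 0.40 under that restriction, 0.64 with limma on log2(TPM + 1) and 0.71 with limma on log2(TPM + 0.1), where the median of all genes also moved by 0.15, -0.01, 0.15 and 0.16. DESeq2 called 27 higher and 5 lower, no filter 30 and 6, scaling by total counts 30 and 4, and counting identical X and Y copies once 26 and 5.

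With each sample left out in turn, 25 to 30 were called higher and 4 to 6 lower, 44 to 46 passed higher and 10 to 12 lower, and the median lay between 0.45 and 0.52. Of the 31 called receptor genes, 25 kept their call whichever sample was left out. The replicate numbers did not pair the samples (correlations of deviations 0.01, 0.02 and -0.06, with only replicate 2 correlating best with its own number), and with the replicate block 26 were called higher and 5 lower. Over 547 combinations of a named receptor gene and an alternative, 524 kept their direction and side of the threshold, 9 no longer passed, 10 newly passed and 4 changed sign. All 4 were GPR160, with log2 fold changes of 0.11 under scaling by total counts, 0.0964 and 0.0968 with limma on log2(TPM + 1) and log2(TPM + 0.1), and 0.0081 without Control replicate 3, against -0.04, while without Control replicate 1 it passed at -0.12. Depth limits the genes under about 10 counts in a group, where the fitted fold depends on the prior count.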
